A study of Mus musculus with 38 samples.

Results

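Calcium cycling genes carry the calcium that couples the electrical signal of the heart muscle cell to its contraction. A set of 10 such genes was chosen by name: Atp2a2, Pln, Ryr2, Casq2, Cacna1c, Cacnb2, Slc8a1, Camk2d, Jph2 and Trdn. The expression tables listed all 10 among 29564 genes, and 9 of them had counts. Slc8a1 was listed at 0 in all 38 libraries.

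Messenger RNA was sequenced from the left ventricle of 38 wild-type C57BL6 mice, with 1 library per mouse. The healthy group, non_failing, held 8 mice and also received vehicle. Heart failure with preserved ejection fraction (HFpEF) was induced in the other mice with a high-fat diet and L-NAME, a blocker of nitric oxide synthesis, and these mice then received treatment by mouth once a day. Of them 8 had vehicle (HFpEF+Veh), 11 had TYA-018, an inhibitor of the deacetylase HDAC6 (HFpEF+TYA-018), and 11 had empagliflozin, which blocks the kidney glucose transporter SGLT2 (HFpEF+SGLT2i). The drugs were given once disease was established, and no healthy group received a drug. The labels and the study's methods differ on the sex of the mice, and the ages are not given in the labels. Libraries are called here by the group and the mouse number of their titles.

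Each beat starts when the L-type calcium channel opens and lets a small amount of calcium into the cell. That calcium opens the ryanodine receptor of the sarcoplasmic reticulum, the internal calcium store, and the release from the store drives contraction. Relaxation follows when a calcium pump returns calcium to the store and a sodium-calcium exchanger moves the rest out of the cell. Slow calcium removal is one of the ways in which a heart can relax poorly, which is the defining defect of HFpEF.

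Libraries held 21500000 to 59300000 expected counts, rounded to the nearest 100000. The median was 29500000. None of 166 pairs of libraries of the same group agreed within counting noise (lowest chi-square per degree of freedom 16.6). All 10 listed cardiomyocyte markers were above 0 at the median of every group, a check of the tissue label. Their summed level ran from 24932 to 35145 TPM in non_failing, 24763 to 28658 in HFpEF+Veh, 24481 to 29877 in HFpEF+TYA-018 and 19229 to 28991 in HFpEF+SGLT2i. TPM, the share of a library's transcripts scaled to a common total, corrects for transcript length and can be compared between genes. The vehicle library V2523 held liver transcripts, with albumin at 1045 CPM (counts scaled to a common library size) against at most 20.8 in the other vehicle libraries. Albumin was also present in every non_failing library, at 13.3 to 235 CPM, and at most 1.90 CPM with TYA-018 and 7.42 CPM with empagliflozin. V2523 stood apart from its group, so values of these genes against vehicle are also given without it. The vehicle library V2532 was the deepest of its group, at 57700000 counts. V2571 and V2572 had the lowest cardiomyocyte marker sums of HFpEF+SGLT2i, 19229 and 21567 TPM.

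The genes differed widely in level. Pln and Atp2a2 stood highest, at 999 ± 246 and 988 ± 280 TPM (SD, n = 38). Their order was not fixed, since Pln exceeded Atp2a2 in 24 of 38 libraries. Casq2 followed at 117 ± 29.4 TPM, then Jph2 at 63.1 ± 13.1, Cacna1c at 36.4 ± 7.28 and Ryr2 at 24.97 ± 6.02 TPM. Casq2 exceeded Jph2 in 38 of 38 libraries, Jph2 exceeded Cacna1c in 37, and Cacna1c exceeded Ryr2 in 34. Trdn at 23.0 ± 4.94 TPM and Camk2d at 22.3 ± 3.77 TPM changed order between groups. Trdn was above Camk2d in 0 of 8 vehicle libraries (means 19.9 and 23.3 TPM), 3 of 8 non_failing, 6 of 11 empagliflozin and 10 of 11 TYA-018 libraries (25.5 and 21.1 TPM). Ryr2 exceeded Trdn in 7 of 8 vehicle, 5 of 8 non_failing and 11 of 11 empagliflozin libraries, but in 2 of 11 with TYA-018. These orders were not tested. Cacnb2 was the lowest, at 14.1 ± 4.31 TPM, and lay below Camk2d in 37 libraries.

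**Figure D1:**
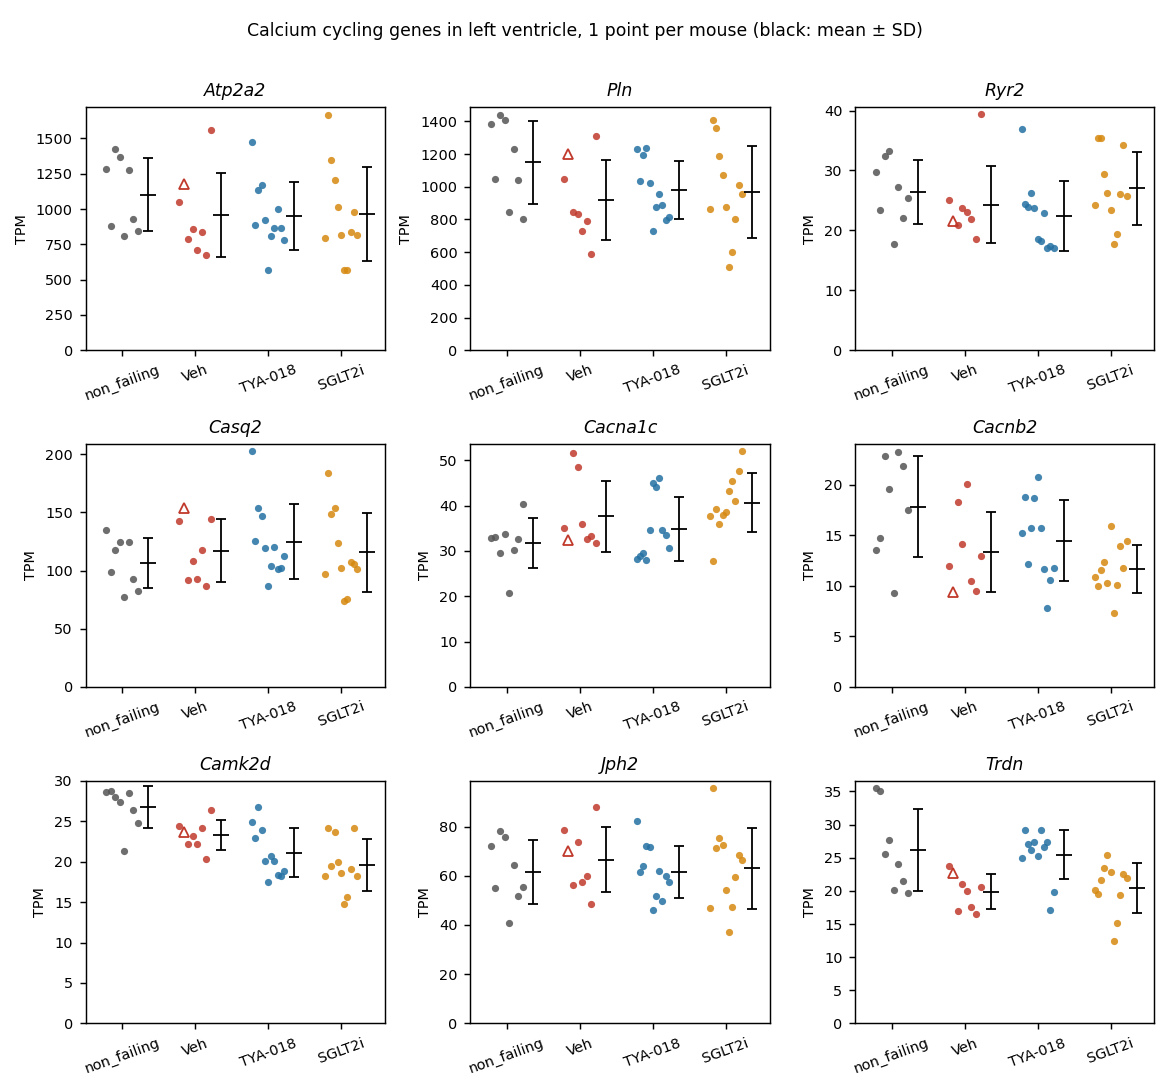
Level in TPM of the 9 genes with counts, 1 point per mouse, for 8 non_failing, 8 vehicle, 11 TYA-018 and 11 empagliflozin mice; black bars show the mean and SD, and the open triangle is the vehicle library V2523. The mean of Camk2d steps down from 26.7 TPM in non_failing to 19.6 in HFpEF+SGLT2i, and the ranges of the groups overlap for all 9 genes.

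Of 8 gene families compared, 4 were carried almost wholly by 1 gene. The exchangers Slc8a1, Slc8a2 and Slc8a3, at or near 0 TPM (below), are left out of this count. Atp2a2 made up 99.1 ± 0.487% of the TPM of the sarcoplasmic reticulum pumps Atp2a1, Atp2a2 and Atp2a3 (SD, n = 38). Ryr2 made up 99.8 ± 0.330% of the ryanodine receptors, Casq2 97.6 ± 1.17% of the calsequestrins and Jph2 96.1 ± 0.595% of the junctophilins. The channel genes were less exclusive, with Cacna1c at 84.2 ± 3.20% beside Cacna1s at 15.8 ± 3.20%, and Cacnb2 at 81.3 ± 5.62% beside Cacnb1 at 13.2 ± 3.75%. Camk2d made up 49.2 ± 5.50% of the calmodulin kinase II genes, with Camk2g at 25.8 ± 4.02%, Camk2a at 18.5 ± 2.93% and Camk2b at 6.53 ± 1.17%. Among the small membrane peptides that act on the pump, Pln held 85.5 ± 5.55% and Strit1, which relieves its inhibition, 14.4 ± 5.52% over all groups. The Strit1 share was 9.90 ± 2.92% in non_failing (SD, n = 8) and 18.8 ± 6.50% in HFpEF+Veh (SD, n = 8), with overlapping ranges (6.59 to 14.5% and 9.14 to 27.7%), and 14.8% and 14.1% with TYA-018 and empagliflozin. The shares were not tested. Sln, the atrial member, reached at most 0.625 TPM.

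On GRCm38 (GENCODE M21) the pump gene Atp2a2 lies at chr5:122453513-122502225 on the minus strand and Pln at chr10:53337667-53345987 on the plus strand, where Cep85l overlaps on the other strand. Ryr2 occupies chr13:11553102-12106945 (minus), Casq2 chr3:102086415-102146514 (plus) and Trdn chr10:33080554-33476709 (plus). Cacna1c occupies chr6:118587240-119196418 (minus) and meets Dcp1b on the other strand, and Cacnb2 occupies chr2:14603088-14987908 (plus). Camk2d is at chr3:126596302-126846326 (plus), Jph2 at chr2:163336242-163397993 (minus) and Slc8a1 at chr17:81373105-81738377 (minus). Library construction kept the strand, but whether quantification used it is not given in the sources used here.

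RefSeq start windows (GRCm38.p6) were at hand for 8 of the 10 genes, each reaching from 250 bases before to 50 bases after a start. Windows of 3 store genes whose levels rose and fell together between mice (below) are printed 5′ to 3′, with matches to the E-box letters CANNTG, which read the same on both strands, in capitals.
Pln, chr10:53337436-53337735, plus strand: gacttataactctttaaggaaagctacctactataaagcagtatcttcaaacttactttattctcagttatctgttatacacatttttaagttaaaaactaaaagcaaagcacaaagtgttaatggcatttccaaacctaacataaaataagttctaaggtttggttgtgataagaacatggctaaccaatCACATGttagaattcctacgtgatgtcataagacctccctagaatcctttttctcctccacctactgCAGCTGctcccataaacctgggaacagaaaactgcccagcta
Casq2, chr3:102086165-102086464, plus strand: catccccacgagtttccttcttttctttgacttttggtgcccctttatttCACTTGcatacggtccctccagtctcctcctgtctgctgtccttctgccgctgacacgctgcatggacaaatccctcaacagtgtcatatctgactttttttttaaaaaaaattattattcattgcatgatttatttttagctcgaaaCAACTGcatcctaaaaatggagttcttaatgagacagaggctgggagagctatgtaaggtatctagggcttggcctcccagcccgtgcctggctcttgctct
Ryr2, chr13:12106896-12107195, minus strand: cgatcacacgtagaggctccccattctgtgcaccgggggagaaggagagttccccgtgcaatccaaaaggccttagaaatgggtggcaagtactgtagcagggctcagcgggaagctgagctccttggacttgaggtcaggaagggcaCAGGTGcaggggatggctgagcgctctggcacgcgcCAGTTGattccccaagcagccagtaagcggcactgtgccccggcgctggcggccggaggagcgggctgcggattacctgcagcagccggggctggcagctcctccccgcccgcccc
Each of these windows held 2 matches. The windows of Jph2, which varied together with these genes and is not printed, held 1 match each. The same letters occurred in 72.3% of 32851 RefSeq windows of this length, so holding a match does not set these genes apart. The windows differed in base composition, with 36% G and C in Pln, 44.7% in Casq2 and 65.3% in Ryr2.

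Cacna1c had windows at 3 separate starts, printed because the estimated effective length of its transcripts differed between groups (below).
Cacna1c first start, chr6:119196360-119196659, minus strand: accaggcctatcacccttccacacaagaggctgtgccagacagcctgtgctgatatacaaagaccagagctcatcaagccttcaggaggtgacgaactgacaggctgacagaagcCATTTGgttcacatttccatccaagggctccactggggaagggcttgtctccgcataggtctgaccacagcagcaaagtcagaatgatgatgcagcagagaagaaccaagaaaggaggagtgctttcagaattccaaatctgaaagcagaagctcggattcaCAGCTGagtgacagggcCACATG
Cacna1c second start, chr6:119108446-119108745, minus strand: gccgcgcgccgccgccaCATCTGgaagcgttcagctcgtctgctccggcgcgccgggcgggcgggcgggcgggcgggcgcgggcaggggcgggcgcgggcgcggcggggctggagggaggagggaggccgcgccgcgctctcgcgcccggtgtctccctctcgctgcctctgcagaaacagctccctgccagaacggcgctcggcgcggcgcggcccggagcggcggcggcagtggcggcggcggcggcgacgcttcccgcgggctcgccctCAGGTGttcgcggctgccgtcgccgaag
Cacna1c last start, chr6:118757925-118758224, minus strand: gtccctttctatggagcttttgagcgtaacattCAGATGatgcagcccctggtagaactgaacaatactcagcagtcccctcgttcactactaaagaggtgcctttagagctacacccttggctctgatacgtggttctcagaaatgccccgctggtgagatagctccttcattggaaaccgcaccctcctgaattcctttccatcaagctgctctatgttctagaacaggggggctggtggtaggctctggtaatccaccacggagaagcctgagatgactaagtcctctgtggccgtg
They held 3, 2 and 1 matches to CANNTG, again in capitals. The second window was the richest in G and C, at 81.3% against 51.3% in both others, and held 6 matches to GGGCGG on either strand, letters found in 35.7% of all windows. Which starts were used in these hearts was not measured here.

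Differences between groups were tested on the expected counts with the quasi-likelihood test of edgeR in 1 model of 4 groups, with Benjamini-Hochberg adjustment over 13765 genes, and calls were made where the adjusted p was under 0.05. Counts of libraries above or below the mean of another group are in CPM, also where levels are given in TPM. A fold change is given as log2 of the ratio of normalised counts with its standard error (SE). Over the 4 groups together, 4 of the 9 genes tested differed, namely Camk2d (adjusted p 0.00158), Cacna1c (0.0128), Trdn (0.0147) and Cacnb2 (0.0426), where 9.5% of all genes tested were called. The Cacnb2 call was lost in 4 of 8 other settings and in 16 of 38 fits without 1 library, at an adjusted p of up to 0.0819 without V2503. The Cacna1c call was lost in 3 of 8 settings, limma at both pseudocounts and the length offset, and the calls of Camk2d and Trdn held in all 8. Atp2a2, Pln, Ryr2, Casq2 and Jph2 were not called, with adjusted p from 0.320 to 0.996.

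The first question was which calcium genes changed with the disease model. Trdn, which encodes triadin, the protein that ties calsequestrin to the ryanodine receptor, was the only one of the 9 called in HFpEF+Veh against non_failing, where 3.15% of all genes tested were called. Trdn ranged from 19.7 to 35.5 TPM (median 24.8) in non_failing and from 16.4 to 23.7 TPM (median 20.3) in HFpEF+Veh. The ranges overlapped, and the non_failing libraries V2501 and V2502 stood above all other libraries of the study. The log2 fold change was -0.46 (SE 0.12, adjusted p 0.0250), with 8 of 8 vehicle libraries below the non_failing mean. Without V2523 it was -0.47 (adjusted p 0.0262). The call was lost in 3 of 9 other settings, with library size alone (adjusted p 0.0624) and with limma at both pseudocounts (0.0527 and 0.0610). It was also lost without V2501 (log2 fold change -0.39, adjusted p 0.0742), and without V2502, V2504, V2529 or V2530 in turn, each with an adjusted p above 0.05.

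In these bulk samples, fewer muscle cells and less RNA per muscle cell cannot be told apart. Of the 10 cardiomyocyte markers, 8 of 10 were lower and 4 of 10 called in HFpEF+Veh against non_failing, with a median log2 fold change of -0.095. They did not move as a set. Myh6, Actn2 and Actc1 lay between -0.05 and -0.004, Ckm was at -0.14, and Mybpc3 (0.04) and Ttn (0.16) were higher, none of them called. Tnnt2 had a log2 fold change of -0.43 there (adjusted p 0.00459), Myl3 -0.41 (0.00256), Myl2 -0.37 (0.0121) and Tnni3 -0.34 (0.0129). Of 9 marker lists for other cells, 6 had a higher median sum in HFpEF+Veh than in non_failing and 3 a lower one (pericyte and smooth muscle, atrial, hepatocyte), given here without a test. The fast skeletal muscle list, among the 6, shares Ckm with the cardiomyocyte list, so it does not measure other cells alone. This list also enters the later counts of 9 lists. Fibroblast markers had a median of 281 TPM (191 to 309) in non_failing and 340 TPM (271 to 644) in HFpEF+Veh, macrophage markers 88.7 (58.2 to 109) and 102 TPM (86.4 to 150.0), and erythrocyte markers 3108 (1983 to 4448) and 5163 TPM (3162 to 23328). The adipocyte sums did not overlap, at 13.2 to 19.0 TPM in non_failing and 20.7 to 30.4 TPM in HFpEF+Veh, but the adipocyte genes Plin1, Cfd and Ucp1 had a median of 0 in both groups and only 2 of 6 genes had one above 0 in non_failing. Hepatocyte sums had a median of 43.8 TPM (14.7 to 273) in non_failing and 2.32 TPM (1.16 to 1131) in HFpEF+Veh. The part of these markers in the Trdn result was not tested.

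The other genes of the store were not called after adjustment in HFpEF+Veh against non_failing. Pln, which encodes phospholamban, the inhibitor of the pump, ranged from 800 to 1440 TPM (median 1139) in non_failing and from 587 to 1310 TPM (median 840) in HFpEF+Veh. Its log2 fold change was -0.42 (SE 0.17, unadjusted p 0.0192, adjusted p 0.202, interval -0.76 to -0.07), with 7 of 8 vehicle libraries below the non_failing mean. Atp2a2, which encodes the pump SERCA2 itself, was at -0.28 on the log2 scale (SE 0.18, adjusted p 0.471, interval -0.64 to 0.09). Ryr2, the release channel, gave -0.18 (adjusted p 0.554, interval -0.45 to 0.10), and -0.30 without V2532, again not called. Casq2, the calcium buffer inside the store, gave 0.02 (interval -0.34 to 0.38), and Jph2, which holds the store against the surface membrane, 0.02 (interval -0.28 to 0.33). Changes as large as the ends of these 95% intervals lie within the error. Without V2523 the sign of Casq2 turned, to -0.05 (adjusted p 0.912).

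Of the genes at the surface membrane, Cacnb2, the β subunit that brings the channel to the membrane, ranged from 9.32 to 23.3 TPM (median 18.5) in non_failing and from 9.40 to 20.1 TPM (median 12.4) in HFpEF+Veh. Its log2 fold change was -0.43 (SE 0.18, unadjusted p 0.0205, adjusted p 0.208). Cacna1c, the pore of the channel, went the other way with 0.30 (SE 0.14, unadjusted p 0.0420, adjusted p 0.293). Camk2d, the main calmodulin-dependent kinase of the heart, gave -0.28 (SE 0.09, unadjusted p 0.00331, adjusted p 0.0786), with 8 of 8 vehicle libraries below the non_failing mean. In all, 5 of 9 genes had an unadjusted p under 0.05 in this comparison, and 2185 of 13765 genes did. Without V2532 these counts were 7 of 9 and 2699 of 13829. Without V2523 the log2 fold changes were -0.47 for Pln (adjusted p 0.133), -0.31 for Atp2a2 (0.381), -0.14 for Ryr2 (0.617), 0.02 for Jph2 (0.971), -0.37 for Cacnb2 (0.262), 0.35 for Cacna1c (0.168) and -0.26 for Camk2d (0.101), none of them called. Camk2d was called when only these 2 groups entered the fit (adjusted p 0.0143) and without V2532 (0.0423).

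**Figure D2:**
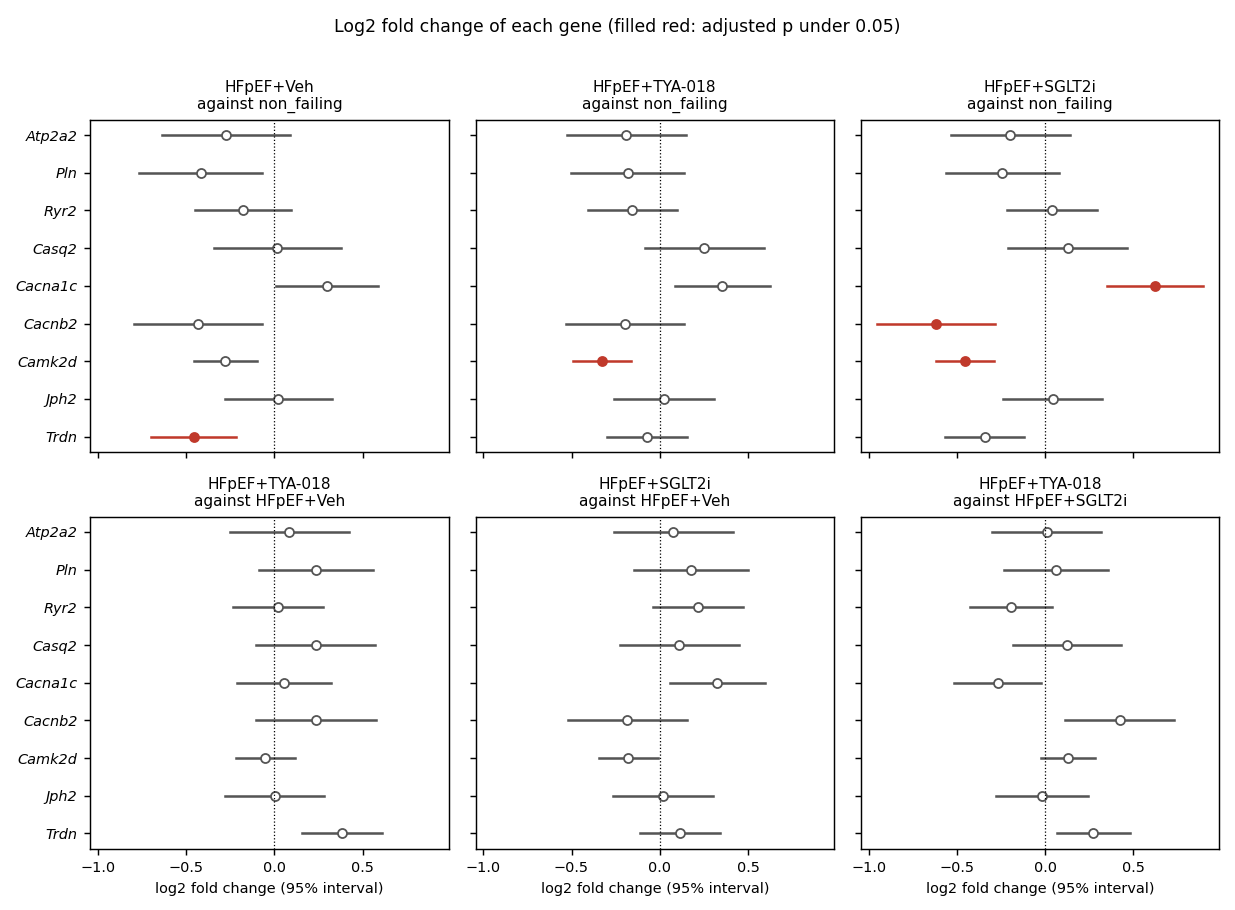
Log2 fold change (point) and 95% interval (line) of each gene in the 6 comparisons, from the edgeR fit over 38 libraries; filled red marks an adjusted p under 0.05. Red marks appear only in the upper row, against non_failing, for Trdn, Camk2d, Cacna1c and Cacnb2.

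The drugs were then compared with vehicle. With TYA-018, 0 of 9 genes were called, where 1.93% of all genes tested were called, and 1 gene, Trdn, had an unadjusted p under 0.05. Trdn ranged from 17.2 to 29.2 TPM (median 26.6) in HFpEF+TYA-018, against a median of 20.3 TPM in HFpEF+Veh, and 9 of the 11 treated libraries stood above every vehicle library. The log2 fold change was 0.39 (SE 0.11, adjusted p 0.0604), with 10 of 11 treated libraries above the vehicle mean. It was 0.40 without V2523 (adjusted p 0.0701). This value lay close to the threshold, since DESeq2 called it (0.38, adjusted p 0.0319), as did a fit with transcript length as an offset (0.50, adjusted p 0.0272), while limma on TPM did not. The cardiomyocyte markers were higher in 7 of 10 cases in this comparison with 0 called, and the medians of their summed level were 28513 TPM with TYA-018 and 26921 TPM with vehicle. Of 9 marker lists for other cells, 2 had a higher median sum with TYA-018 than with vehicle and 7 a lower one. Fibroblast sums had medians of 264 TPM with TYA-018 and 340 TPM with vehicle, and endothelial sums 378 and 450 TPM. The part of these markers in the Trdn value was not tested.

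The other 8 genes gave log2 fold changes between -0.05 (Camk2d, interval -0.22 to 0.12) and 0.24 (Cacnb2, interval -0.10 to 0.58) with TYA-018. Pln was at 0.24 (interval -0.09 to 0.56), Casq2 at 0.24 (-0.10 to 0.57) and Atp2a2 at 0.09 (-0.25 to 0.42). Ryr2, Cacna1c and Jph2 lay between 0.00 and 0.05, and their sign turned when library size alone scaled the counts, a setting that moved the median of all genes to -0.14. Without V2523 the sign of Ryr2 turned as well, to -0.01, and these 8 genes lay between -0.06 (Camk2d) and 0.30 (Casq2), with adjusted p of 0.330 or more.

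With empagliflozin, 0 of 9 genes were called against vehicle by edgeR, where 0.85% of all genes tested were called. That background itself rested on V2523, since 117 genes were called with it and 2 without it. DESeq2 also called 0 of the 9, where it called 227 of 16755 genes. limma called 0 of 13909 genes at both pseudocounts, so its 0 of 9 does not set these genes apart. Cacna1c gave the lowest unadjusted p, 0.0192, with a difference of 0.32 on the log2 scale (SE 0.13, adjusted p 0.350), and Camk2d the next, 0.0359, for -0.18 (SE 0.08, adjusted p 0.445). They were 0.27 (adjusted p 0.481) and -0.19 (adjusted p 0.418) without V2523. Trdn was at 0.11 (interval -0.11 to 0.34), Atp2a2 at 0.08 (-0.26 to 0.41) and Ryr2 at 0.21 (-0.04 to 0.47). Without V2523 they were 0.12, 0.11 and 0.18. Without V2532 Atp2a2 was at 0.21 and Ryr2 at 0.33. Pln was at 0.18 (interval -0.15 to 0.50), Casq2 at 0.11 (-0.22 to 0.45), Cacnb2 at -0.18 (-0.52 to 0.15) and Jph2 at 0.02 (-0.26 to 0.30). Without V2523 these were 0.23, 0.18, -0.25 and 0.02, with adjusted p of 0.604 or more.

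TYA-018 and empagliflozin, which act on unrelated targets, were compared directly in 11 mice each. No gene of the 9 was called, and 0% of all genes tested were, although 1821 genes and 3 of the 9 had an unadjusted p under 0.05. DESeq2 called 184 genes and none of these 9. Cacnb2 was at 0.42 (SE 0.15, unadjusted p 0.00913, adjusted p 0.212, interval 0.11 to 0.73), with 10 of 11 TYA-018 libraries above the empagliflozin mean. Trdn was at 0.27 (SE 0.10, adjusted p 0.231, interval 0.06 to 0.48) and Cacna1c at -0.27 (SE 0.12, adjusted p 0.326, interval -0.51 to -0.02).

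Treated mice were also set against non_failing mice, to see which calcium genes stood apart from the healthy level at the end of treatment. These comparisons share their control mice with that of vehicle. Camk2d fell in both. It ranged from 21.3 to 28.8 TPM (median 27.7) in non_failing, from 17.5 to 26.7 TPM (median 20.1) in HFpEF+TYA-018 and from 14.7 to 24.2 TPM (median 19.0) in HFpEF+SGLT2i. A single non_failing library, V2507, lay at 21.3 TPM, and the other 7 lay at 24.7 TPM or above. The log2 fold change was -0.33 with TYA-018 (SE 0.08, adjusted p 0.00924, lower in 10 of 11) and -0.46 with empagliflozin (SE 0.08, adjusted p 0.000329, lower in 11 of 11). Both calls held in all 9 other settings, 2 of which were chosen after seeing the data, and in all 38 fits that left out 1 library. Without V2571 and V2572 together, a pair picked because it lay low for several of these genes, the second value was -0.39 (adjusted p 0.00125).

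Camk2d was the only gene of the 9 called with TYA-018 against non_failing, where 7.39% of all genes tested were called. Cacna1c was at 0.35 there (SE 0.13, unadjusted p 0.0113, adjusted p 0.0970), and Trdn, called with vehicle, was at -0.07 (SE 0.11, interval -0.30 to 0.15).

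With empagliflozin against non_failing, 3 of the 9 genes were called, where 6.45% of all genes tested were called. Beside Camk2d these were both subunits of the L-type channel, in opposite directions. Cacnb2 ranged from 7.35 to 15.9 TPM (median 11.6) in HFpEF+SGLT2i against 9.32 to 23.3 TPM (median 18.5) in non_failing. Its log2 fold change was -0.62 (SE 0.17, adjusted p 0.0172, lower in 11 of 11), and -0.53 without V2571 and V2572 (adjusted p 0.0498). limma on log2(TPM + 1) gave -0.54 for Cacnb2 with an adjusted p of 0.0634. Trdn was at -0.34 (SE 0.11, adjusted p 0.0537, lower in 11 of 11). It was called in 2 of 9 other settings, DESeq2 (adjusted p 0.0307) and the library size covariate (0.0290), and in 8 of 38 fits without 1 library. The cardiomyocyte markers were lower in 6 of 10 cases with 4 called in this comparison, and lower in 5 of 10 with 1 called with TYA-018 against non_failing. Summed hepatocyte markers ran from 0.316 to 1.89 TPM with TYA-018 and from 0.202 to 5.40 TPM with empagliflozin, and neither range overlapped the 14.7 to 273 TPM of non_failing. Adipocyte sums were 24.3 to 35.7 TPM with TYA-018 and 25.1 to 32.9 TPM with empagliflozin, both above the 13.2 to 19.0 TPM of non_failing. Erythrocyte sums had medians of 6868, 3715 and 3108 TPM in the same order. With each drug, 4 of 9 lists for other cells had a higher median sum than non_failing and 5 a lower one. The part of these markers in the calls against non_failing was not tested.

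Cacna1c rose in counts, and the size of the rise depended on the unit. It ranged from 122 to 216 CPM (median 153) in non_failing and from 144 to 329 CPM (median 244) in HFpEF+SGLT2i, and 10 of 11 treated libraries stood above every non_failing library. The log2 fold change was 0.62 (SE 0.13, adjusted p 0.00250). The effective length of its transcripts also differed, from 3832 ± 364 bases in non_failing (SD, n = 8) to 4659 ± 334 bases in HFpEF+SGLT2i (SD, n = 11). Salmon estimates this length in each library from the mix of transcripts and from corrections for sequence, GC and position bias. The part of each in the difference was not tested. Per length the groups were closer, at 31.7 ± 5.49 TPM in non_failing and 40.6 ± 6.49 TPM in HFpEF+SGLT2i. With length as an offset the log2 fold change was 0.35 (adjusted p 0.0635), and limma on log2(TPM + 1) gave 0.37 (adjusted p 0.102). The call for Cacna1c therefore holds for counts and not for the level per length.

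**Figure D3:**
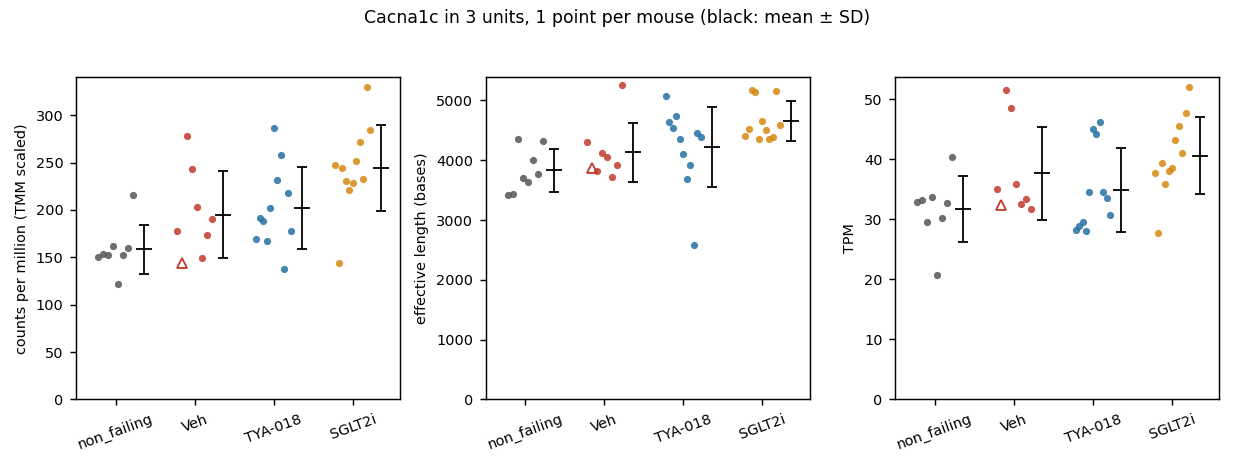
Cacna1c by group in CPM (left), in effective transcript length in bases (middle) and in TPM (right), 1 point per mouse with the mean and SD in black; the open triangle is V2523. The mean length rises from 3832 bases in non_failing to 4659 in HFpEF+SGLT2i, and the groups lie closer in TPM than in CPM.

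Ratios between genes of the same mouse remove what both share. The ratio of Casq2 to Ryr2 sets the buffer of the store against its release channel. On the log2 scale of TPM it ranged from 1.70 to 2.19 (median 2.07) in non_failing, 1.87 to 2.83 (median 2.20) in HFpEF+Veh, 2.21 to 2.73 (median 2.49) in HFpEF+TYA-018 and 1.63 to 2.38 (median 2.06) in HFpEF+SGLT2i. All 11 TYA-018 libraries lay above all 8 non_failing libraries. The mean was 0.47 higher with TYA-018 than in non_failing (two-sided exact permutation test, p 1.32e-05, the smallest the test can give, adjusted p 0.000159 over 12 tests). It was 0.40 higher with TYA-018 than with empagliflozin (permutation test, p 0.00011, adjusted p 0.00066). With expected counts in place of TPM these differences were 0.40 (adjusted p 0.0108) and 0.33 (adjusted p 0.0280). In counts the ratios of TYA-018 and non_failing libraries overlapped. The ratio of V2550 (7199 for Casq2, 12327.2 for Ryr2) lay below that of V2501 (12280 and 17322.5). How many other pairs of genes separate these groups in TPM was not examined. Neither gene was called by itself in these comparisons. Casq2 was at 0.25 (SE 0.17, adjusted p 0.402) and Ryr2 at -0.16 (SE 0.13, adjusted p 0.506) with TYA-018 against non_failing.

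Against vehicle the Casq2 to Ryr2 ratio was 0.21 higher with TYA-018 (exact permutation test, p 0.0671, adjusted p 0.161). The highest vehicle library was V2523, at 2.83. Without it the difference was 0.29 (exact permutation test, adjusted p 0.0192). The difference between empagliflozin and vehicle was -0.19 (exact permutation test, adjusted p 0.241), and -0.11 without V2523 (adjusted p 0.439, exact). The difference between vehicle and non_failing was 0.26 (exact permutation test, adjusted p 0.161) and 0.18 without V2523 (adjusted p 0.245, exact), and that between empagliflozin and non_failing 0.07 (adjusted p 0.572, exact).

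The ratio of Atp2a2 to Pln sets the pump against its inhibitor. Its log2 value (mean and SD) was -0.06 ± 0.11 in the 8 non_failing mice, 0.05 ± 0.12 in the 8 vehicle mice, -0.06 ± 0.18 in the 11 TYA-018 mice and -0.02 ± 0.14 in the 11 empagliflozin mice, so the transcripts stood near 1 to 1 in every group. In TPM the largest of 6 differences was 0.12, between vehicle and non_failing (exact permutation test, p 0.0637, adjusted p 0.161). With expected counts this difference was 0.14 (exact permutation test, p 0.0297, adjusted p 0.0951), and that between TYA-018 and vehicle was -0.16 (p 0.0317, adjusted p 0.0951, exact). Without V2523 the differences in TPM were 0.13 between vehicle and non_failing (exact permutation test, adjusted p 0.165), -0.12 between TYA-018 and vehicle (0.259) and -0.08 between empagliflozin and vehicle (0.377).

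**Figure D4:**
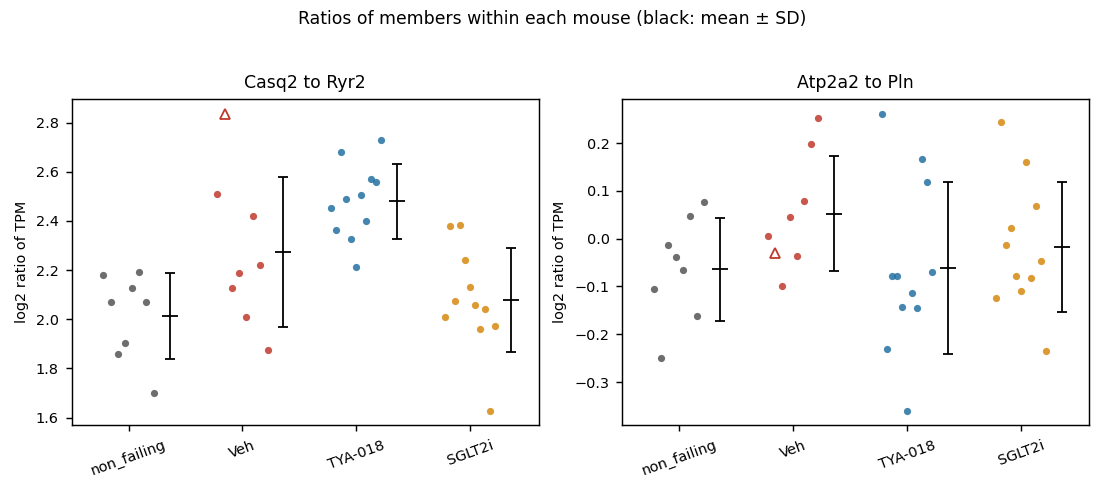
Log2 ratio of TPM of Casq2 to Ryr2 (left) and of Atp2a2 to Pln (right), 1 point per mouse, by group, with the mean and SD in black and V2523 as an open triangle. For Casq2 to Ryr2 the HFpEF+TYA-018 points, from 2.21 to 2.73, all lie above the non_failing points, which end at 2.19.

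The ranges of the groups overlapped for all 9 genes, and mice of the same group differed in an ordered way. Deviations of log2 CPM from the group mean were compared over 38 libraries, for 36 pairs of genes and for each gene with library size and with the cardiomyocyte marker sum, 54 relations in all. Permutations were made within groups, and p-values were adjusted over the 54. Atp2a2 and Pln rose and fell together (Pearson r 0.93, Spearman rho 0.94, permutation p 1e-05 for both, the smallest possible, adjusted p 3.6e-05 and 3.86e-05, and r 0.93 without the 2 farthest libraries). Atp2a2 and Casq2 did so too (r 0.92, rho 0.90, permutation p 1e-05 for both, r 0.91 without the 2 farthest). Over the 10 pairs among Atp2a2, Pln, Casq2, Jph2 and Ryr2, r ran from 0.72 to 0.93. Such values were not particular to these genes, since r was 0.97 for Atp2a2 with Klhdc2 and 0.97 for Pln with Gbas (below).

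Cacna1c ran against Casq2 and Atp2a2. Its r was -0.51 with Casq2 (rho -0.51, permutation p 0.00189 and 0.00171, adjusted p 0.00329 and 0.00342, r -0.39 without the 2 farthest libraries) and -0.46 with Atp2a2 (rho -0.39, permutation p 0.00589 and 0.0179, r -0.37 without them). With the other genes of the store the test did not separate it from 0 after adjustment by Pearson's r, at -0.36 with Pln (permutation p 0.0362, adjusted p 0.0514; rho -0.37, adjusted p 0.0426), -0.26 with Jph2 (p 0.134), -0.13 with Trdn (p 0.432) and -0.02 with Ryr2 (p 0.917). With its own partner subunit Cacnb2 it was positive, at 0.48 (rho 0.44, permutation p 0.00452 and 0.0102, r 0.45 without the 2 farthest). Cacnb2 had an r of -0.01 with Atp2a2 (rho 0.01, permutation p 0.935).

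**Figure D5:**
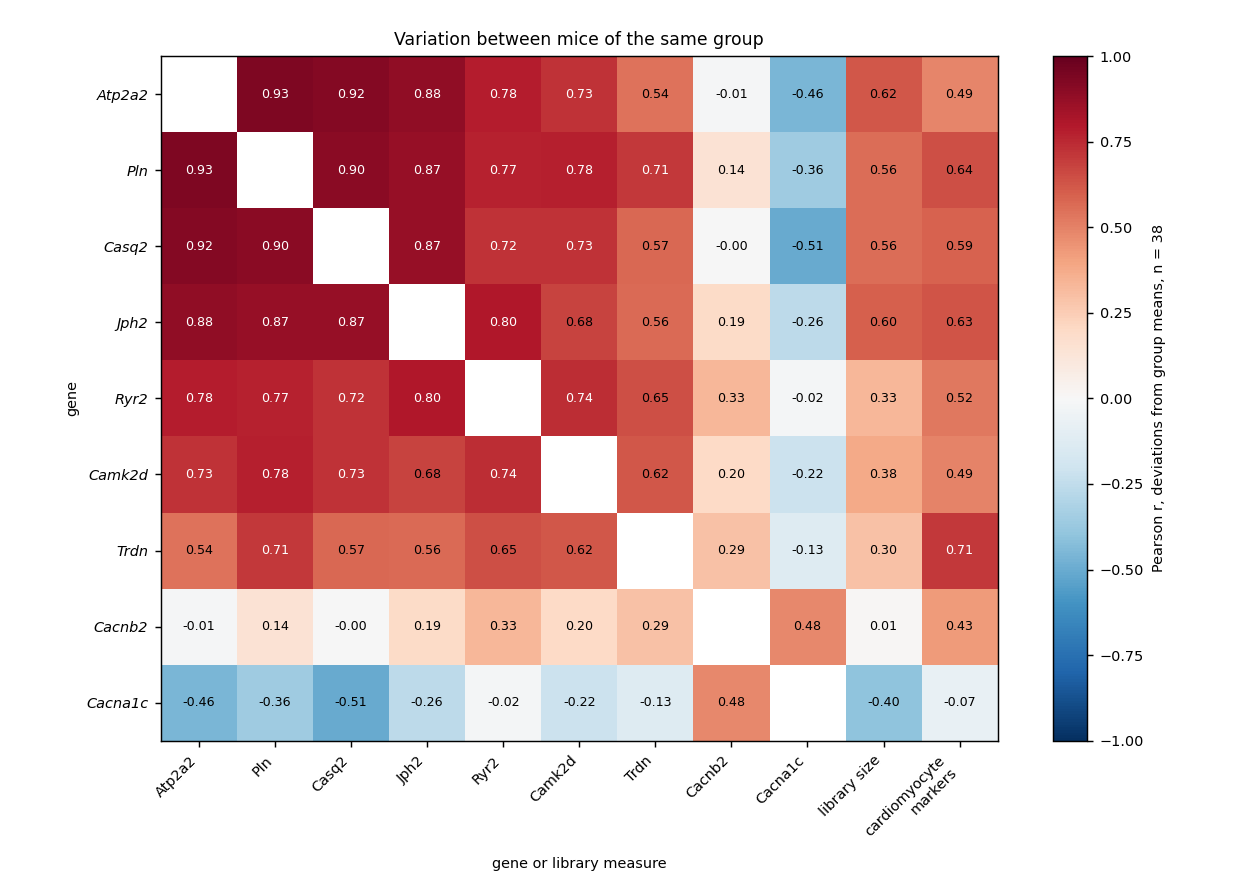
Pearson r between deviations from group means of log2 CPM for each pair of genes, and with log2 library size and the log2 summed TPM of cardiomyocyte markers (last columns), over 38 libraries. Atp2a2, Pln, Casq2, Jph2 and Ryr2 form a block of 0.72 to 0.93, and Cacna1c is negative with Casq2 at -0.51.

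The deviations of 5 of the 9 genes went with the depth of the libraries. Library size had an r of 0.62 with Atp2a2 (rho 0.57, permutation p 0.00036 and 0.00056, adjusted p 0.000845 and 0.00144, r 0.54 without the 2 farthest libraries), 0.60 with Jph2 (rho 0.55, permutation p 0.00039 and 0.00082, r 0.52) and -0.40 with Cacna1c (rho -0.47, permutation p 0.0176 and 0.00385, r -0.47). It was 0.56 with both Pln and Casq2 (permutation p 0.00149 and 0.00083). The other 4 genes did not pass, with r of 0.38 for Camk2d (permutation p 0.0522), 0.33 for Ryr2 (p 0.0649), 0.30 for Trdn (p 0.104) and 0.01 for Cacnb2 (p 0.949). The cardiomyocyte marker sum had an r of 0.71 with Trdn (rho 0.53, permutation p 3e-05 and 0.00125, r 0.65 without the 2 farthest) and 0.49 with Atp2a2 (rho 0.42, permutation p 0.00413 and 0.0120, r 0.42). It also passed by Pearson's r with Pln (0.64), Jph2 (0.63), Casq2 (0.59), Ryr2 (0.52) and Camk2d (0.49, permutation p 0.00373, adjusted p 0.00629). With Cacnb2 r was 0.43 (permutation p 0.00504, adjusted p 0.00778), but rho was 0.25 (p 0.127) and r 0.20 without the 2 farthest, so that relation rested on those libraries. With Cacna1c r was -0.07 (permutation p 0.661). The part of depth and of the markers in these relations was not tested. Median depths of the groups ran from 28800000 to 29800000 counts, while the deepest library of a group ran from 42600000 with TYA-018 to 59300000 with empagliflozin. With log2 library size as a covariate all 5 calls against non_failing were kept, at adjusted p of 0.0170 for Trdn with vehicle, 0.0065 for Camk2d with TYA-018, and 0.000102, 0.000905 and 0.0167 for Camk2d, Cacna1c and Cacnb2 with empagliflozin.

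The same libraries marked the ends of many genes. In TPM, V2507 was the lowest non_failing library for 7 of the 9 genes, V2530 the lowest vehicle library for 7 and V2571 the lowest empagliflozin library for 7. In CPM these counts were 3, 7 and 8, and V2510 was the lowest non_failing library for 5 genes. V2507, V2530 and V2571 also had the highest mitochondrial share of TPM in their groups, 39.9%, 41.7% and 44.6%, and its part in these values was not tested. V2532 was the highest vehicle library for 5 genes in TPM and 7 in CPM, and V2562 the highest empagliflozin library for 5 in both.

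By the same measure, the gene most like each member over 38 libraries was found among 7823 well expressed genes, as a description. For Casq2 it was Srl, which encodes sarcalumenin, a calcium-binding protein of the store (r 0.96). For Jph2 it was Mfn2, a mitochondrial fusion protein (r 0.94), and for Pln it was Gbas (r 0.97), while Atp2a2 was closest to Klhdc2 (r 0.97). Ryr2 was closest to the spectrin gene Sptb (r 0.87), Trdn to Usp13 (r 0.87) and Camk2d to the sarcomere gene Nebl (r 0.86). For Cacna1c the closest was 4930402H24Rik (r 0.83), and for Cacnb2 it was Rbm20, a splicing factor of heart muscle genes (r 0.77). The points share libraries, depth and tissue.

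A wider list of 72 calcium genes, with regulators of the store, other channels, pumps, calmodulins, mitochondrial uptake and phosphatases, was also examined, and 66 of them were tested. In HFpEF+Veh against non_failing, 2 of 66 were called higher and 0 lower, close to the 3.15% of all genes. Rcan1, a regulator and target of the calcium-dependent phosphatase calcineurin, rose from 15.8 ± 2.73 TPM (SD, n = 8) to 25.003 ± 4.80 TPM (SD, n = 8). The difference was 0.54 on the log2 scale (SE 0.15, adjusted p 0.0318), and 8 of 8 vehicle libraries exceeded the non_failing mean. It was 0.51 without V2523 (adjusted p 0.0454). The call was lost without V2528 (0.44, adjusted p 0.0994) and without any 1 of 6 other libraries. The other called gene, Atp2a1, rested on V2532, which held 12.4 TPM where no other vehicle library exceeded 0.347 TPM. Its log2 fold change of 3.09 became -0.81 without that library (adjusted p 0.206). Without V2523, 4 were called higher and 1 lower, which added Casq1, Mcu and Strit1, where 4.49% of all genes were called in that fit.

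Against vehicle, Atp2a1 was the only call of the wider list with each drug, on the same library, at -3.33 with TYA-018 and 0.57 without V2532, and at -3.17 with empagliflozin and 0.73 without V2532. Without V2523 the TYA-018 calls were Atp2a1 and Ahnak, 0 higher and 2 lower, where 1.42% of all genes were called, and empagliflozin had 0 calls. Between the drugs 0 of 66 were called by edgeR, with 12 at an unadjusted p under 0.05. Against non_failing, 1 of 66 was called with TYA-018 and 4 of 66 with empagliflozin, where 7.39% and 6.45% of all genes were. Atp2b1, the calcium pump of the surface membrane, fell with TYA-018 (log2 fold change -0.28, SE 0.07, adjusted p 0.00907, lower in 11 of 11) and with empagliflozin (-0.23, SE 0.07, adjusted p 0.0429, lower in 10 of 11). The second of these calls was lost under 7 of 9 other settings. With empagliflozin 2 more fell, S100a1, a calcium sensor that acts on the pump and the ryanodine receptor (-0.28, SE 0.08, adjusted p 0.0313, lower in 11 of 11), and Calm2, a calmodulin gene (-0.21, SE 0.06, adjusted p 0.0367, lower in 11 of 11). Cacna1h, a T-type channel, was the 1 gene higher (0.67, SE 0.19, adjusted p 0.0233, above the non_failing mean in 10 of 11). In other settings the calls were lost in 5 of 9 for Calm2, 2 of 9 for Cacna1h and 1 of 9 for S100a1. Leaving out 1 library ended the call of Atp2b1 with empagliflozin in 14 of 38 fits (adjusted p up to 0.0883, without V2507). It ended that of Calm2 in 7 fits (V2502, V2503, V2507, V2509, V2565, V2566, V2575), of S100a1 in 5 (V2501, V2502, V2509, V2563, V2571) and of Cacna1h in 3 (V2507, V2509, V2563). The median log2 fold change of the 66 genes lay between -0.05 and -0.00497 in the 6 comparisons, and that of all genes between -0.01 and 0.01.

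Slc8a1 encodes the sodium-calcium exchanger of the heart, the main route by which calcium leaves the muscle cell. It was listed at 0 expected counts and 0 TPM in all 38 libraries, with a single length of 2767 bases in each. A total of 7693 genes were listed in this way. Its relatives were near the floor as well, at no more than 0.171 TPM for Slc8a2 and 0.0942 TPM for Slc8a3. An all-zero row can be a failed estimate as well as an absent transcript, so no level and no fold change is given for Slc8a1.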

How the data were processed

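Left ventricular RNA of 38 mice was quantified by the authors with Salmon 1.6.0 (submitters' processing notes), after adapter trimming, against the mouse transcripts of GENCODE M25 on GRCm38. The labels name another build, hg38. The authors imported transcripts with tximport, and salmon's corrections for sequence, GC and position bias were on. The deposited tables hold expected counts, the estimated reads of each gene. The deposited TPM values were scaled by the authors over all transcripts of a library. The remaining deposited table gives the effective length in bases, a score used as an offset. No deposited column was left unmapped (0). Groups and mouse numbers came from the sample titles. Mouse numbers differ between groups, so no samples are paired.

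Expected counts were rounded, filtered with filterByExpr, scaled with TMM factors and tested with edgeR 4.0.16 in R 4.3.3 (glmQLFit, glmQLFTest), with all 38 libraries in 1 model. An SE was taken as the size of the log2 value over the square root of F. Alternatives used limma 3.58.1 on TPM processed in part as in the study, without its limit to protein-coding genes (detection in 90% of libraries or more, mitochondrially encoded genes left out, TPM rescaled, a pseudocount of 1 or 0.1), DESeq2 1.42.0, other scaling, no filter, a length offset, only the groups compared, and each library left out. The fit was tested on simulated data. P-values set a difference or relation against the spread between mice. Ratios used two-sided permutation tests, exact where a group held under 10 mice and with 100000 resamples otherwise. Log2 CPM used a prior count of 2.

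The genes named are the 10 members, their paralogs, the called genes of the wider list (up to 5 a direction by the smallest p) and, for each member, the gene of highest r among those averaging 3 or more on the log2 CPM scale. The members and lists were chosen with earlier results of these data known. Markers of 10 cell types were also summed. Mrln and Mcub were found under older symbols. The ratio of Slc8a1 to Atp2a2 could not be computed. Genes overlapping a member on the same strand, and paralogs, can share reads, which the quantification divides by a model.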

Additional observations from a re-analysis of the deposited data

Results flagged for a closer look

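The vehicle library V2532 stood far above the others for Ryr2, at 39.4 TPM. It was the 1 flag by Dixon's 95% rule in 22 sets, the 9 genes and 2 ratios in each of the 2 groups of 8, and chance flags about 1 in 20 such sets. The groups of 11 were not tested, and there V2543 was the highest TYA-018 library for Ryr2, at 36.9 TPM. V2532 was also the deepest vehicle library and held the Atp2a1 signal.

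Effective transcript lengths, which the comparisons of level did not use by themselves, differed between empagliflozin and non_failing hearts. The Cacna1c length was 827 bases higher (two-sided exact permutation test, p 1.32e-05, the smallest possible, adjusted p 0.000714 over 54 tests), with 11 of 11 treated libraries above the non_failing mean. The Ryr2 length was 338 bases higher (exact permutation test, adjusted p 0.0168, 11 of 11). Transcript usage was not analysed here.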

How the results depend on the processing

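No paired analysis was possible because mouse numbers differ in every group. The planned ratio of Slc8a1 to Atp2a2 gave no value. Leaving out V2571 and V2572 together, and library size as a covariate, were chosen after seeing the data. The cause of the changes below was not tested.

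In HFpEF+Veh against non_failing, members called numbered 0 with library size alone (477 of 13765 genes called in all) and with limma at either pseudocount (439 and 414 of 13909), and 2 with only the groups compared (344 of 13276) and without V2571 and V2572 (530 of 13717), against 1 (433 of 13765). Leaving out 1 library gave 0 to 2, with 0 without V2501, V2502, V2504, V2529 or V2530 and 2 without V2532 (605 of 13829). For fits without 1 library, the share of all genes is given in this paragraph only for V2532 and V2571. In HFpEF+TYA-018 against HFpEF+Veh the members called numbered 1, Trdn, with DESeq2 (519 of 16332), length offset (192 of 13765), the covariate (399 of 13765) and without V2571 and V2572 (432 of 13717), against 0 (266 of 13765). Leaving out 1 library gave 0 to 1 there, with 1 without V2501, V2510, V2570, V2559 or V2571 (341 of 13733 without V2571). In HFpEF+SGLT2i against non_failing it was 1 with limma (521 and 530 of 13909 genes called in all), 2 with length offset (809 of 13765), 4 with DESeq2 (1292 of 15909) and with the covariate (1124 of 13765), against 3 (888 of 13765), and 3 to 4 leaving out 1 library, in HFpEF+TYA-018 against non_failing 1 to 2 (2 without V2510), and over 4 groups 2 with limma (753 and 742 of 13909) and length offset (1084 of 13765), 3 without V2571 and V2572 (1604 of 13717), against 4 (1308 of 13765), and 3 to 4 leaving out 1 library.

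Signs turned for member differences that were not called, for Atp2a1 and for 1 ratio. With library size alone the values were -0.041 for Atp2a2, -0.10 for Ryr2, -0.069 for Cacna1c and -0.13 for Jph2 (TYA-018 against vehicle), -0.0042 for Atp2a2 and -0.060 for Jph2 (empagliflozin against vehicle), -0.037 for Atp2a2 (TYA-018 against empagliflozin) and -0.038 for Jph2 (TYA-018 against non_failing). Without V2571 and V2572 the values were -0.11 for Atp2a2 and -0.071 for Pln (TYA-018 against empagliflozin). With limma on log2(TPM + 1) the values were -0.11 for Ryr2, -0.096 for Cacna1c and -0.090 for Jph2 (TYA-018 against vehicle) and -0.016 for Casq2 and -0.073 for Jph2 (empagliflozin against vehicle). With limma on log2(TPM + 0.1) the values were -0.11 for Ryr2, -0.097 for Cacna1c and -0.091 for Jph2 (TYA-018 against vehicle) and -0.016 for Casq2 and -0.074 for Jph2 (empagliflozin against vehicle). With DESeq2 the values were -0.00092 for Jph2 and 0.48 for Atp2a1 (TYA-018 against vehicle), -0.73 for Atp2a1 (vehicle against non_failing) and 0.64 for Atp2a1 (empagliflozin against vehicle). With no filter the values were -0.0083 for Jph2 (TYA-018 against vehicle). With the library size covariate the values were -0.026 for Jph2 (empagliflozin against vehicle), 0.056 for Jph2 (TYA-018 against empagliflozin) and -0.015 for Jph2 (empagliflozin against non_failing). With a length offset the values were 0.012 for Jph2 (TYA-018 against empagliflozin). With expected counts in place of TPM the values were -0.018 for the ratio of Atp2a2 to Pln (TYA-018 against non_failing). Leaving out 1 library turned the sign in some fits, with ranges of -0.026 to 0.21 for Atp2a2, -0.067 to 0.11 for Jph2 and -3.37 to 0.73 for Atp2a1 (empagliflozin against vehicle), -0.051 to 0.11 for Atp2a2, -0.0081 to 0.12 for Pln and -0.078 to 0.068 for Jph2 (TYA-018 against empagliflozin), -0.041 to 0.14 for Ryr2, -0.0096 to 0.14 for Cacna1c, -0.055 to 0.090 for Jph2 and -3.53 to 0.57 for Atp2a1 (TYA-018 against vehicle), -0.0092 to 0.088 for Ryr2 and -0.045 to 0.10 for Jph2 (empagliflozin against non_failing), -0.052 to 0.089 for Casq2, -0.067 to 0.079 for Jph2 and -0.81 to 3.37 for Atp2a1 (vehicle against non_failing) and -0.028 to 0.070 for Jph2 and -0.029 to 0.033 for the ratio of Atp2a2 to Pln (TYA-018 against non_failing).

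Library size alone moved the median of all genes to 0.08 for vehicle against non_failing and -0.14 for TYA-018 against vehicle, where calls split 25 higher and 1071 lower against 115 and 151. The difference in the Casq2 to Ryr2 ratio between TYA-018 and vehicle ran from 0.15 without V2532 to 0.29 without V2523.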

Other observations

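The effective length of Atp2a2 was 149 bases shorter in mean with TYA-018 (2686 ± 99.0 bases, SD, n = 11) than with empagliflozin (2835 ± 95.7 bases, SD, n = 11; permutation test, adjusted p 0.0209).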
